A study of Mus musculus with 18 samples.

Results

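The genes described here encode chemokines and their receptors, 50 of the 18193 mouse genes that the arrays represent by a probe set of a single gene. A gene was a member if its symbol was Ccl, Cxcl, Ccr or Cxcr followed by a digit, or was Cx3cl1, Cx3cr1, Xcl1 or Xcr1, and each gene was read from its probe set with the highest mean. The 50 genes had 78 such probe sets. They comprised 18 CC ligands, 13 CXC ligands, 2 ligands of the CX3C and XC classes, 10 CC receptors, 5 CXC receptors and 2 receptors of the CX3C and XC classes. Of these, 39 passed the filter on dim probe sets, which asked for a value above the array's own 40th percentile (9.5 to 14.2 intensity units) on at least 3 of 18 arrays, and 11 were near background.

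Liver RNA of C57BL/6 mice was hybridised to Affymetrix mouse expression arrays. The mice were AIM-KO (AIM-/-), which lack the macrophage-derived protein AIM encoded by Cd5l, or WT (AIM+/+), and both had chow (0 weeks of high-fat diet), 12 weeks of high-fat diet (HFD) or 20 weeks of HFD. Each of the 6 groups had 3 arrays. The labels call the arrays biological replicates without saying that each came from its own animal, so the p-values measure the spread between these samples; the labels give neither age nor sex, so longer feeding and greater age cannot be told apart.

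Chemokines are small secreted proteins that guide leukocytes along a gradient by binding receptors coupled to inhibitory G proteins. They are classed by the spacing of their first cysteines into CC, CXC, CX3C and XC ligands, and the receptors are named after the class they bind. In fatty liver disease the CC ligands of monocytes and the interferon-inducible CXC ligands of T cells are known for drawing these cells into the tissue, where Kupffer cells, endothelium, stellate cells and hepatocytes can all make them.

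Before the members, 4 facts of the whole set of arrays bear on the comparisons. Cd5l stood between 4.0 and 23.5 on the 9 AIM-KO arrays and between 702.6 and 1926.8 on the 9 WT arrays, so the genotype labels and the targeted gene went together. Xist, an RNA made from the inactive X chromosome, stood between 2921.6 and 3049.7 on 4 arrays, which were all 3 arrays of AIM-KO at 20 weeks and WT 20 weeks replicate 2, and between 7.8 and 26.2 on the other 14. On the same 4 arrays the Y-linked Eif2s3y stood between 3.9 and 7.3, against 498.4 to 675.1 on the other 14, and Kdm5d and Uty split the arrays alike. High Xist without Y-linked RNA is the pattern of female mice, so the AIM-KO group at 20 weeks differs from AIM-KO chow and 12 weeks in the sex read from these RNAs as well as in diet, and these cannot be told apart. Between genotypes at 20 weeks this sex is uneven too, with 3 Xist-high arrays in AIM-KO and 1 in WT. The 3′ to 5′ ratio of the actin control probe sets, a measure of RNA integrity, was 3.47 ± 0.86 at WT 20 weeks and 2.67 ± 0.13 in WT chow (SD, n = 3 each). In AIM-KO at 20 weeks it was 2.51 ± 0.14. WT 20 weeks replicates 1, 2 and 3 had 3.64, 2.54 and 4.22, so at 20 weeks the Xist-high arrays had the lower ratios. Xist and this ratio cannot be told apart there. The summed intensity of 8 hepatocyte markers, albumin among them, lay between 47136 and 74699. Cd4 and Cd8b1 of T cells, Ncr1 of NK cells and Cd79a of B cells lay below the 40th percentile on all 18. Other markers of these cells did not, and 6 of 9 T cell, 6 of 7 NK cell and 5 of 6 B cell markers measured passed the dim filter.

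At 12 weeks of HFD, 12 of the 39 members tested rose in AIM-KO livers against AIM-KO chow and none fell. They were the CC ligands Ccl2, Ccl3, Ccl5 and Ccl6, the CXC ligands Cxcl2, Cxcl9, Cxcl10, Cxcl14 and Cxcl16, and the receptors Ccr1, Ccr2 and Cx3cr1. This was 30.8% of the members tested, against 18.2% of all genes tested; the median change of the members was 0.44 on the log2 scale and that of all genes 0.04. The threshold for a call was an adjusted p of 0.05 in limma over all 14673 genes tested, and log2 changes are of the intensity plus 3.3, which understates the change of dim genes. In bulk liver RNA, more cells of a type and more transcript per cell cannot be told apart.

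In WT livers at 12 weeks, 7 of the 39 rose against WT chow (Ccl5, Ccl6, Cxcl9, Cxcl10, Cxcl16, Ccr2 and Cx3cr1) and Ccl9 fell; these 8 calls compare with 5.15% of all genes tested. All 7 rises were also called in AIM-KO livers at 12 weeks. The count of 8 fell to 3 without WT 12 weeks replicate 1, to 4 without WT chow replicate 3 and to 5 without WT chow replicate 1 or 2. Ccl6, Cxcl16 and Ccr2 were called in each of those 4 fits.

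At 20 weeks, 8 of the 39 rose in WT livers against WT chow, Ccl2, Ccl5, Ccl6, Cxcl2, Cxcl9, Cxcl10, Cxcl16 and Ccr2, against 14.5% of all genes tested. In AIM-KO livers at 20 weeks 1 member, Ccl6, rose against AIM-KO chow, against 6.97% of all genes tested. Ccl6 was the one gene of the 50 called in all 4 comparisons with chow, and Ccl5, Cxcl9, Cxcl10, Cxcl16 and Ccr2 were called in every one but AIM-KO at 20 weeks. Arrays that did not overlap between HFD and chow were common over all genes and are no call by themselves. They were seen for 15 of the 39 members at 12 weeks in AIM-KO (34.8% of all genes tested), 8 at 20 weeks in AIM-KO (24%), 14 at 12 weeks in WT (23.9%) and 14 at 20 weeks in WT (29.1%). The AIM-KO count of 1 became 0 when the fit held an Xist term (high or not), with no variance trend, or without AIM-KO chow replicate 1 or 2 or AIM-KO 20 weeks replicate 1 or 2.

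**Figure D1:**
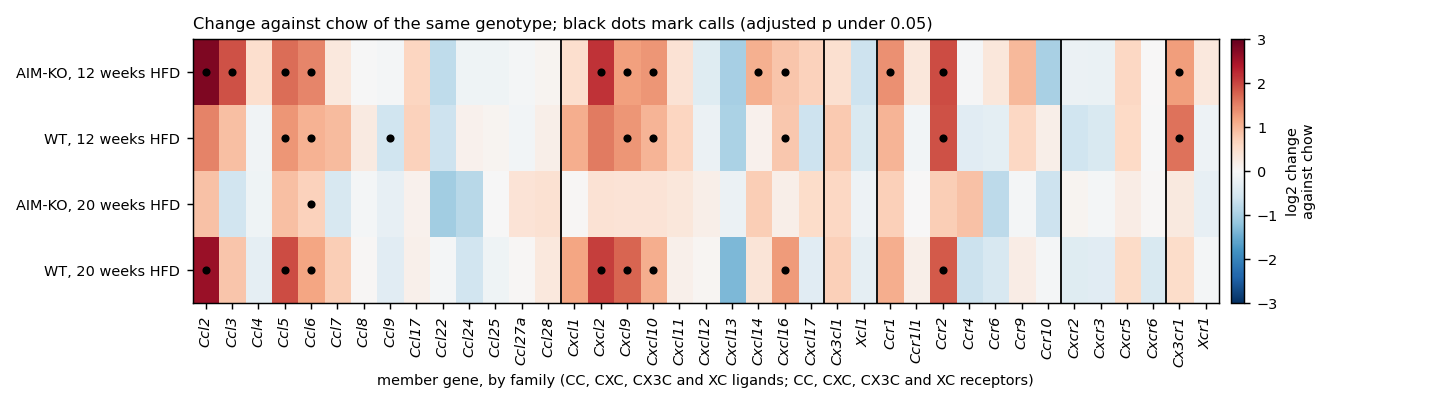
Each column is a member that passed the dim filter and each row a comparison with chow of the same genotype; colour gives the log2 change (red higher on HFD, blue lower) and a black dot marks a call. The rows for AIM-KO at 12 weeks (12 dots) and WT at 20 weeks (8 dots) hold the deepest red, and the row for AIM-KO at 20 weeks has 1 dot, at Ccl6.

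Among the CC ligands, Ccl2, the main attractant of monocytes through Ccr2, had the largest fitted change. In AIM-KO livers Ccl2 stood at 3.5, 7.2 and 0.8 on chow, at 44.5, 46.9 and 37.1 at 12 weeks and at 3.4, 8.2 and 20.6 at 20 weeks. In WT livers it stood at 1.1, 2.0 and 1.3 on chow, at 26.5, 15.1 and 1.1 at 12 weeks and at 27.7, 31.2 and 18.8 at 20 weeks. Every chow array was below its 40th percentile, so the chow level is only a bound. Against that bound Ccl2 was at least 4.05-fold higher at 12 weeks in AIM-KO livers (log2 change 2.79 ± 0.57 SE, adjusted p = 0.00204) and at least 2.28-fold higher at 20 weeks in WT livers (2.59 ± 0.57, adjusted p = 0.00453). The WT arrays at 12 weeks did not move as one, since replicate 3 was at the chow level, and the change of 1.5 ± 0.57 was not called (adjusted p = 0.139).

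Ccl5, which attracts T cells and monocytes, was called in 3 of the 4 comparisons with chow. In AIM-KO livers Ccl5 stood at 37.6, 23.7 and 16.6 on chow, at 117.7, 60.4 and 91.2 at 12 weeks and at 50.4, 54.5 and 43.2 at 20 weeks. WT livers had values of 18.6, 16.8 and 5.2 on chow, 34.7, 34.7 and 37.9 at 12 weeks and 41.8, 66.3 and 65.6 at 20 weeks. In both genotypes every HFD array lay above every chow array. The changes were 1.68 ± 0.33 at 12 weeks in AIM-KO (adjusted p = 0.00157), 1.33 ± 0.33 at 12 weeks in WT (adjusted p = 0.0232) and 1.95 ± 0.33 at 20 weeks in WT (adjusted p = 0.000593), while AIM-KO at 20 weeks gave 0.91 ± 0.33 (adjusted p = 0.114). The call at 12 weeks in WT held in 3 of the 6 fits that left out 1 of its arrays, with an adjusted p of up to 0.123.

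Ccl6, a CC ligand of rodents made by macrophages and other myeloid cells, had the smallest errors of the CC ligands that rose. In AIM-KO livers Ccl6 stood at 79.7, 82.2 and 118.3 on chow, at 286.9, 212.7 and 279.6 at 12 weeks and at 172.1, 149.1 and 130.8 at 20 weeks. The WT arrays stood at 74.7, 97.0 and 77.7 on chow, at 225.5, 152.1 and 154.1 at 12 weeks and at 186.0, 206.8 and 188.0 at 20 weeks. No HFD array overlapped the chow arrays of its genotype. It rose 2.74-fold at 12 weeks (adjusted p = 2.94e-05) and 1.61-fold at 20 weeks (adjusted p = 0.0283) in AIM-KO livers, and 2.07-fold at 12 weeks (adjusted p = 0.00201) and 2.29-fold at 20 weeks (adjusted p = 0.000245) in WT livers. Its other probe set had the same sign in all 4, and was called at 12 weeks in AIM-KO and at 20 weeks in WT. With the Xist term the AIM-KO change at 20 weeks was 0.54 on the log2 scale (adjusted p = 0.482).

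Ccl3, a ligand of Ccr1 made by activated macrophages, was above its 40th percentile mainly at 12 weeks in AIM-KO livers. It was so on 5 of 18 arrays, 3 of them AIM-KO at 12 weeks. Ccl3 thus passed the dim filter only through the group in which it was high, which limits its calls. In the fit with no dim filter it was still called. In AIM-KO livers Ccl3 stood at 11.4, 0.7 and 2.4 on chow, at 22.1, 25.8 and 21.2 at 12 weeks and at 0.6, 1.1 and 2.7 at 20 weeks. In WT livers it stood at 1.1, 0.5 and 1.8 on chow, at 3.3, 15.2 and 1.3 at 12 weeks and at 8.7, 4.3 and 2.0 at 20 weeks. The 3 AIM-KO arrays at 12 weeks were the 3 highest of the 18. The rise against chow was 1.92 ± 0.56 (adjusted p = 0.0228), and it was called in 1 of the 6 fits that left out an array, with an adjusted p of up to 0.11.

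Ccl9, another rodent CC ligand that binds Ccr1, was the one member that fell against chow. It stood at 650.8, 613.4 and 487.2 in WT livers at 12 weeks and at 881.8, 933.3 and 831.5 in WT livers on chow, with no overlap. The change was -0.60 ± 0.16 (adjusted p = 0.0347) and was not called in any of the 6 fits that left out an array, with an adjusted p of up to 0.139. In AIM-KO livers the 12 week arrays, at 701.4 to 801.6, lay within the chow arrays, at 571.5 to 1067.9.

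The other CC ligands that passed the dim filter, Ccl4, Ccl7, Ccl8, Ccl17, Ccl22, Ccl24, Ccl25, Ccl27a and Ccl28, were called in no comparison. Ccl4, a close relative of Ccl3, stood at 66.9, 41.0 and 42.8 in AIM-KO livers at 12 weeks and at 40.6, 29.5 and 31.0 in AIM-KO livers on chow. Those arrays did not overlap, with a change of 0.51 ± 0.23 (adjusted p = 0.141). Ccl7, a second ligand of Ccr2, stood at 12.6, 15.1 and 12.8 in WT livers at 12 weeks and at 3.0, 9.2 and 5.2 in WT livers on chow, again without overlap and not called (adjusted p = 0.114). Ccl27a stood at 118.4, 130.9 and 139.6 in AIM-KO livers at 20 weeks and at 103.0, 113.6 and 75.8 in AIM-KO livers on chow (0.42 ± 0.17, adjusted p = 0.156).

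**Figure D2:**
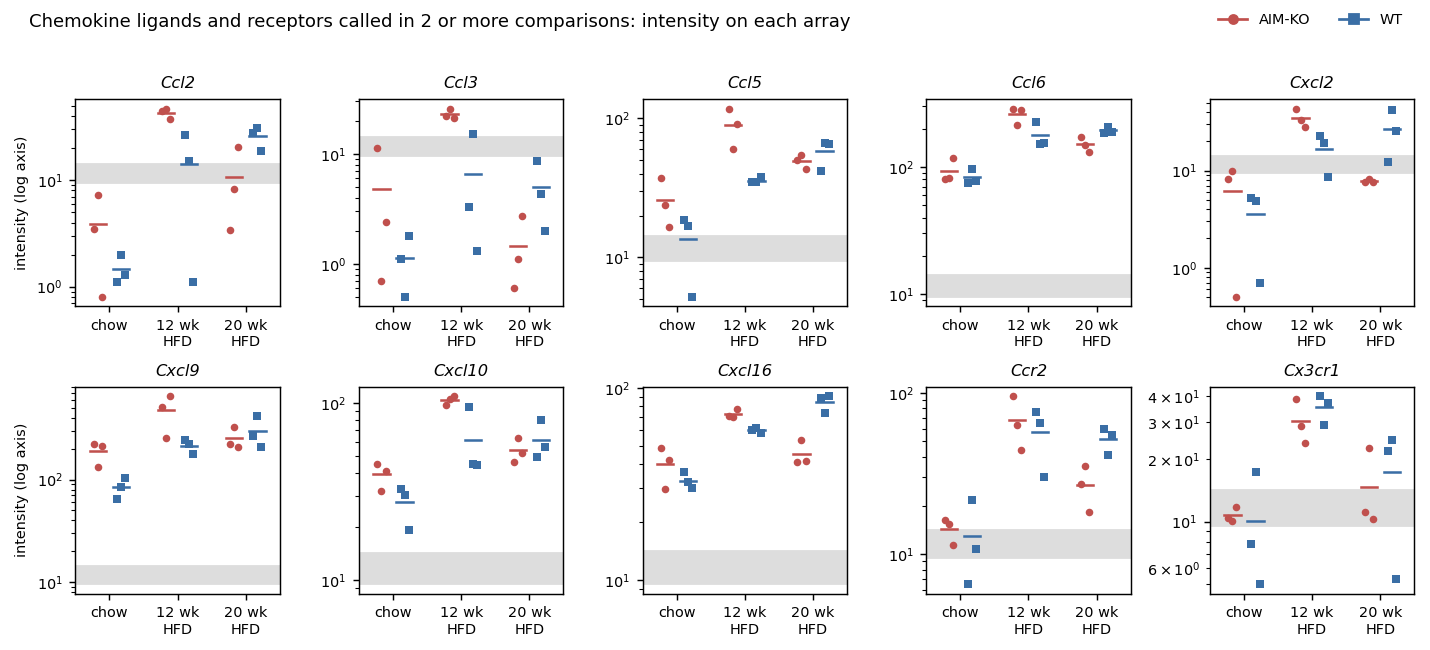
Intensity (log axis) of the 10 members called in at least 2 comparisons, by diet, with 1 point per array, AIM-KO (red circles) left of WT (blue squares), and a line at each group's mean; the grey band spans the 40th percentiles of the arrays, 9.5 to 14.2. The red points at 12 weeks stand above those of chow in every panel, and at 20 weeks the red points of Cxcl16 (41.2 to 53.4) lie below the blue ones (73.8 to 90.6).

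Among the CXC ligands, Cxcl2, which attracts neutrophils through Cxcr2, was called against chow in the same groups as Ccl2. In AIM-KO livers Cxcl2 stood at 8.1, 9.9 and 0.5 on chow, at 43.3, 32.8 and 28.3 at 12 weeks and at 7.7, 8.1 and 7.7 at 20 weeks. WT livers had values of 5.2, 4.8 and 0.7 on chow, 22.8, 19.1 and 8.6 at 12 weeks and 12.2, 42.3 and 25.3 at 20 weeks. All chow arrays were below their 40th percentile. Against that bound it was at least 3.26-fold higher at 12 weeks in AIM-KO livers (2.18 ± 0.48, adjusted p = 0.00377) and at least 2.12-fold higher at 20 weeks in WT livers (2.07 ± 0.48, adjusted p = 0.00706). In WT at 12 weeks all 3 arrays lay above chow, and the change was not called (1.55 ± 0.48, adjusted p = 0.0694). Cxcl1, the other neutrophil ligand that passed the dim filter, was not called anywhere; WT 12 weeks replicate 2 reached 882.1 while replicates 1 and 3 stood at 162.7 and 87.9.

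Cxcl9 and Cxcl10 are induced by interferons and attract T and NK cells through Cxcr3. In AIM-KO livers Cxcl9 stood at 223.4, 133.0 and 213.6 on chow, at 516.8, 252.9 and 657.4 at 12 weeks and at 224.6, 323.6 and 209.4 at 20 weeks. The WT arrays stood at 64.8, 85.3 and 102.9 on chow, at 245.2, 222.7 and 178.5 at 12 weeks and at 267.6, 421.5 and 207.0 at 20 weeks. The 3 WT chow arrays were the 3 lowest of the 18. Cxcl9 rose 2.36-fold at 12 weeks in AIM-KO (adjusted p = 0.00865), 2.52-fold at 12 weeks in WT (adjusted p = 0.0151) and 3.36-fold at 20 weeks in WT (adjusted p = 0.000833), and its second probe set was called in the same 3 comparisons. Leaving out 1 array ended the call in 2 of 6 fits at 12 weeks in AIM-KO and in 3 of 6 at 12 weeks in WT, with adjusted p of up to 0.0549 and 0.08.

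In AIM-KO livers Cxcl10 stood at 45.5, 32.0 and 41.5 on chow, at 97.4, 104.4 and 109.3 at 12 weeks and at 46.3, 63.7 and 52.3 at 20 weeks. In WT livers it stood at 32.7, 30.4 and 19.3 on chow, at 95, 45 and 44.4 at 12 weeks and at 49.8, 79.9 and 56.1 at 20 weeks. The 3 AIM-KO arrays at 12 weeks were the highest of all 18, and WT 12 weeks replicate 1 came next. Cxcl10 rose 2.51-fold at 12 weeks in AIM-KO (adjusted p = 0.00158), 2.02-fold at 12 weeks in WT (adjusted p = 0.0281) and 2.12-fold at 20 weeks in WT (adjusted p = 0.00854). The WT call at 12 weeks held in 3 of the 6 fits that left out an array (adjusted p up to 0.178). Cxcl11, another ligand of Cxcr3 that RefSeq lists as a transcribed pseudogene in this mouse assembly, was not called in any comparison.

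Cxcl16, a membrane-bound ligand that attracts cells bearing Cxcr6 and also takes up oxidised lipoprotein, had narrow spreads. In AIM-KO livers Cxcl16 stood at 48.7, 29.7 and 42.0 on chow, at 71.4, 70.4 and 77.2 at 12 weeks and at 41.2, 53.4 and 41.6 at 20 weeks. WT livers had values of 36.4, 32.2 and 30.1 on chow, 60.1, 61.6 and 58.3 at 12 weeks and 88.6, 73.8 and 90.6 at 20 weeks. The WT groups at the 3 diets did not overlap, with 20 weeks highest, whereas the AIM-KO arrays at 20 weeks overlapped chow. The changes against chow were 0.84 ± 0.17 at 12 weeks in AIM-KO (adjusted p = 0.00241), 0.81 ± 0.17 at 12 weeks in WT (adjusted p = 0.00919) and 1.27 ± 0.17 at 20 weeks in WT (adjusted p = 8.46e-05). A second probe set of Cxcl16 had the same sign in all 3, and was called at 12 weeks in AIM-KO only (at 20 weeks in WT 0.53 ± 0.20, adjusted p = 0.0966).

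Cxcl14, a ligand of epithelia and stroma, rose at 12 weeks in AIM-KO livers, where it stood at 34.8, 20.7 and 13.2, against 12.2, 10.8 and 4.1 in AIM-KO livers on chow. The arrays did not overlap, and the change of 1.07 ± 0.36 (adjusted p = 0.0474) was called in 2 of the 6 fits that left out an array, with an adjusted p of up to 0.241. Its second probe set gave 0.81 ± 0.53 (adjusted p = 0.368). Cxcl13, which attracts B cells, just missed a call in WT livers at 20 weeks. It stood at 13.5, 36.5 and 12.2 in WT livers at 20 weeks and at 47.2, 54.7 and 56.0 in WT livers on chow, with no overlap (-1.36 ± 0.46, adjusted p = 0.0547). With the Xist term this fall was called (-1.79 ± 0.47, adjusted p = 0.0138), which made the count of members called there 9. In AIM-KO livers at 12 weeks it stood at 13.0, 10.9 and 20.1, below the 25.8, 20.9 and 56.5 of AIM-KO chow (-0.99 ± 0.46, adjusted p = 0.158). Cxcl12, which retains blood progenitors through Cxcr4, stood between 461.8 and 929.0 on the 18 arrays, and Cxcl17 between 1.7 and 14.6; neither was called. The CX3C ligand Cx3cl1 (fractalkine) and the XC ligand Xcl1 were not called; Cx3cl1 stood at 14.5, 14.2 and 16.8 in WT livers at 12 weeks and at 6.8, 8.8 and 6.9 in WT livers on chow, without overlap (0.78 ± 0.33, adjusted p = 0.198).

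Among the receptors, Ccr2, the monocyte receptor of Ccl2, was called in 3 comparisons with chow. In AIM-KO livers Ccr2 stood at 16.3, 15.4 and 11.4 on chow, at 95.7, 63.1 and 44.2 at 12 weeks and at 27.1, 35.4 and 18.2 at 20 weeks. The WT arrays stood at 6.5, 21.8 and 10.8 on chow, at 75.7, 64.9 and 30.2 at 12 weeks and at 59.6, 40.9 and 54.5 at 20 weeks. No HFD group overlapped its chow group. The rises were 3.87-fold at 12 weeks in AIM-KO (adjusted p = 0.00105), 3.73-fold at 12 weeks in WT (adjusted p = 0.0043) and 3.59-fold at 20 weeks in WT (adjusted p = 0.00212). The 3 other probe sets of Ccr2 gave smaller changes: the brightest of them gave 1.21, 0.66 and 0.58 on the log2 scale, called in the first only, and a dimmer one gave -0.43 ± 0.53 in WT at 20 weeks (adjusted p = 0.683). With the mean of its probe sets the change in WT at 20 weeks was 0.55 and not called (adjusted p = 0.156).

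Cx3cr1, the fractalkine receptor of monocytes and tissue macrophages, was high at 12 weeks in both genotypes. In AIM-KO livers Cx3cr1 stood at 10.4, 10.1 and 11.8 on chow, at 38.8, 28.8 and 24.0 at 12 weeks and at 11.1, 22.5 and 10.3 at 20 weeks. In WT livers it stood at 7.8, 17.4 and 5.0 on chow, at 40.2, 29.3 and 37.1 at 12 weeks and at 21.9, 24.8 and 5.3 at 20 weeks. All 6 arrays at 12 weeks but AIM-KO replicate 3 stood above every array of the other diets. The rises were 1.24 ± 0.41 in AIM-KO (adjusted p = 0.0422) and 1.64 ± 0.41 in WT (adjusted p = 0.0246). The AIM-KO call held in none of the 6 fits that left out an array and the WT call in 2 of 6, with adjusted p of up to 0.16 and 0.121. Ccr1, a receptor of Ccl3, Ccl5 and Ccl6 on myeloid cells, stood at 36.1, 21.8 and 21.3 in AIM-KO livers at 12 weeks and at 5.9, 10.5 and 8.0 in AIM-KO livers on chow, without overlap. Its rise of 1.36 ± 0.43 (adjusted p = 0.0343) was called in 1 of the 6 fits that left out an array, with an adjusted p of up to 0.15.

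The remaining receptors that passed the filter, Ccr1l1, Ccr4, Ccr6, Ccr9, Ccr10, Cxcr2, Cxcr3, Cxcr5, Cxcr6 and Xcr1, were called in no comparison. Several are defining receptors of lymphocytes and neutrophils: Cxcr3, the T cell receptor for Cxcl9 and Cxcl10, stood between 12.6 and 31.2 on the 18 arrays, Cxcr6, the receptor for Cxcl16, between 7.3 and 23.8, and Cxcr2, the neutrophil receptor for Cxcl2, between 1.8 and 21.5. Over the 26 members that were tested and called nowhere, single values ran between 0.3 and 929.0. The 11 members near background were Ccl1, Ccl11, Ccl12, Ccl20, Cxcl3, Cxcl5, Cxcl15, Ccr3, Ccr7, Ccr8 and Cxcr4, with values between 0.2 and 26.8, and they were not tested. In the fit with no dim filter 1 of the 11 was called, Cxcr4, the receptor of Cxcl12, in WT at 20 weeks against chow (1.37 ± 0.38, adjusted p = 0.0249). It stood at 13.9, 9.0 and 10.2 in WT livers at 20 weeks and at 0.7, 1.6 and 5.1 in WT livers on chow.

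Set out by ligand and receptor, Ccl2 and its receptor Ccr2 both rose at 12 weeks in AIM-KO livers and at 20 weeks in WT livers. Ccr1 and 3 of its ligands, Ccl3, Ccl5 and Ccl6, rose at 12 weeks in AIM-KO livers, and its ligand Ccl9 was not called there. In WT livers Ccl5 and Ccl6 rose at both times and Ccr1 was not called. Ccl7, a second ligand of Ccr2, was called nowhere. A fixed list, which pairs Ccr1 with Ccl3 only, held 17 pairs with both genes tested. At 12 weeks in AIM-KO livers, where 18.2% of all genes tested were called, both were called in 2 of the 17 pairs. There the ligand only was called in 4 and the receptor only in 2. At 20 weeks in WT (14.5% of all genes) these counts were 1, 4 and 1, and at 12 weeks in WT (5.15%) 0, 3 and 3. At 20 weeks in AIM-KO (6.97%) all were 0. Pairs share genes, as Ccr2 is paired with both Ccl2 and Ccl7, so they are not separate observations. At 12 weeks in both genotypes Cx3cr1 rose and its ligand Cx3cl1 was not called, while Cxcl2 rose in 2 comparisons in which its receptor Cxcr2 was not called. Cxcl9, Cxcl10 and Cxcl16 rose in 3 comparisons in which their receptors Cxcr3 and Cxcr6 were not called.

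By position in the mouse assembly GRCm38.p6, many members lie in groups of neighbours, taken here as at most 3 places apart in the order of protein-coding genes. In the group of Ccl5, Ccl9, Ccl6, Ccl3 and Ccl4 on chromosome 11, 4 of 5 members were called in at least 1 comparison with chow, while in the group of Ccl2, Ccl7, Ccl11, Ccl12, Ccl8 and Ccl1 on the same chromosome 1 of 6 was, and 3 of the 6 passed the dim filter. In the first of these groups Ccl9 fell, and Ccl3 passed the dim filter only through the group in which it was high. In the group of Ccr9, Cxcr6, Xcr1, Ccr1, Ccr1l1, Ccr3 and Ccr2 on chromosome 9, 2 of 6 tested were called. Of Cx3cr1 and Ccr8 on that chromosome Cx3cr1 was called, and of Ccl22, Cx3cl1 and Ccl17 on chromosome 8 none was. At least 1 of the 4 comparisons with chow called 13 of the 39 members tested and 25.6% of all genes tested. Cxcl9 and Cxcl10 were called and their neighbour Cxcl11 on chromosome 5 was not. In the group of Cxcl5, Cxcl3, Cxcl15, Cxcl1 and Cxcl2, also on chromosome 5, Cxcl2 was the one called.

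The promoters of the 4 ligands called in the most comparisons among those with a window in RefSeq's table are printed below, to set beside their shared rises. Each window runs from 250 bases before to 50 after the start, 5′ to 3′ on the gene's strand (build GRCm38.p6). Ccl3 and Cxcl2 were called equally often, and Cxcl2 is shown because both its calls were against chow. Capitals mark matches, on either strand, to an NF-kappaB-like motif (GGGA, any 2 bases, TTCC) or an interferon-stimulated motif (GAAA, any 2 bases, GAAA).
Ccl6 (chr11:83593038-83593337, minus strand): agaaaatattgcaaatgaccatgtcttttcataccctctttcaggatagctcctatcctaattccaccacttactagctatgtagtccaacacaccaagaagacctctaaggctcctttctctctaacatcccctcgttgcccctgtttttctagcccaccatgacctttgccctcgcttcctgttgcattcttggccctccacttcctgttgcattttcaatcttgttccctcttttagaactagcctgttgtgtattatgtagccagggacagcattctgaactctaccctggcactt
Cxcl9 (chr5:92328030-92328329, minus strand): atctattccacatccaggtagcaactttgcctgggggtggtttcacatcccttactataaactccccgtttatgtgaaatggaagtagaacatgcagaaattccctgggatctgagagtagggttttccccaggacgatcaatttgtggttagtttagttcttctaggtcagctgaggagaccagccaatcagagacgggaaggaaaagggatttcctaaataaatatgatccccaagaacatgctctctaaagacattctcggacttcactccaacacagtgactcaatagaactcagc
Cxcl10 (chr5:92348840-92349139, minus strand): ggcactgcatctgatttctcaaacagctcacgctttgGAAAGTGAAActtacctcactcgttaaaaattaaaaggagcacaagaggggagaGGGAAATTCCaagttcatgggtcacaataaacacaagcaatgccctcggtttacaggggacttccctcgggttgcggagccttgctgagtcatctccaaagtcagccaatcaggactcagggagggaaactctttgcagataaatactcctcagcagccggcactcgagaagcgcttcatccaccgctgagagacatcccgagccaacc
Cxcl2 (chr5:90903649-90903948, plus strand): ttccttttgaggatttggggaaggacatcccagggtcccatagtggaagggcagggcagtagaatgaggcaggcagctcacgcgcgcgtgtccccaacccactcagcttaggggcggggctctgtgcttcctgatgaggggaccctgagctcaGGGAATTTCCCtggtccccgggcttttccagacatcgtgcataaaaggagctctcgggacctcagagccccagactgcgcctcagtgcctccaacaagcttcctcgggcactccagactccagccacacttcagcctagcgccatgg

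Cxcl10 held 1 match to each motif. Cxcl2 held 2 overlapping matches to the NF-kappaB-like motif, 1 on each strand. Neither of these letter patterns is in the Ccl6 and Cxcl9 windows, nor in the Ccl3 window. Of 32851 windows of this length in the table, 1.47% held the NF-kappaB-like motif and 3.44% the interferon-stimulated one. Of the 37 members with a window, 6 held the NF-kappaB-like motif (Ccl1, Ccr3, Cxcl1, Cxcl2, Cxcl3 and Cxcl10), of which Ccl1, Ccr3 and Cxcl3 were near background in this liver RNA, and 2 held the interferon-stimulated one (Cxcl10 and Cxcl14). A match is a description of the letters and not a measured site.

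Between the genotypes on the same diet no member was called by limma. On chow none of 39 was called (3 at an unadjusted p under 0.05), against 0.0273% of all genes tested. At 12 weeks none was called (7 at an unadjusted p under 0.05), against 0.075% of all genes. At 20 weeks none was called (5 at an unadjusted p under 0.05), against 0.157% of all genes. The lowest adjusted p of a member was 0.349 for chow, 0.212 for 12 weeks and 0.0568 for 20 weeks.

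Arrays that did not overlap between genotypes were seen for 3 of 39 members on chow (11.5% of all genes tested), 9 at 12 weeks (16%) and 8 at 20 weeks (15.7%). At 12 weeks Ccl2 stood at 44.5, 46.9 and 37.1 in AIM-KO livers and at 26.5, 15.1 and 1.1 in WT livers (1.78 ± 0.57, adjusted p = 0.314). Ccl5 stood at 117.7, 60.4 and 91.2 in AIM-KO livers and at 34.7, 34.7 and 37.9 in WT livers at that time (1.20 ± 0.33, adjusted p = 0.212). Cxcl9 was higher on all AIM-KO arrays both at 12 weeks (1.04 ± 0.31, adjusted p = 0.266) and on chow (1.13 ± 0.31, adjusted p = 0.349). Without WT 12 weeks replicate 1, whose Cxcl10 of 95 lay near the AIM-KO arrays, Cxcl10 was called between the genotypes at 12 weeks. By their fitted values 12 of the 39 members were lower in AIM-KO livers at 12 weeks and 22 of 39 at 20 weeks (24 with the Xist term). The median of all genes tested was 0.014 at 12 weeks and -0.0013 at 20 weeks. The members were read on the same arrays, so their signs are not separate observations.

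At 20 weeks Cxcl16 came closest to a call between genotypes, at 41.2, 53.4 and 41.6 in AIM-KO livers and 88.6, 73.8 and 90.6 in WT livers. The groups did not overlap, and the difference was -0.85 ± 0.17 (adjusted p = 0.0568). This comparison sets 3 Xist-high arrays against 1, and with the Xist term the difference was -0.67 ± 0.24 (adjusted p = 0.93). The Xist-high arrays at 20 weeks also had the lower actin ratios (2.35 to 2.61, against 3.64 and 4.22). Sex and RNA integrity therefore cannot be told apart here. Leaving out WT 20 weeks replicate 2 gave a call and leaving out any of the other 5 arrays gave none; it was also called in 2 of 8 other alternatives, those with a pseudocount of 13.2 and with the replicate number as a block, with adjusted p between 0.00749 and 0.93 over the 14. Cxcl2 stood at 7.7, 8.1 and 7.7 in AIM-KO livers at 20 weeks and at 12.2, 42.3 and 25.3 in WT livers, also without overlap (-1.29 ± 0.48, adjusted p = 0.241). WT 20 weeks replicate 2, the Xist-high WT array, was the highest of its group for 15 of the 39 members, among them Ccl2 (31.2) and Cxcl2 (42.3), and the lowest for 12, among them Cxcl16 (73.8), Ccr2 (40.9) and Ccr1 (14.3).

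Tests of the diet effect between genotypes gave no call. For the 12 week effect none of 39 members was called by limma (1 at an unadjusted p under 0.05), against 0.00682% of all genes tested. For the 20 week effect none was called (8 at an unadjusted p under 0.05), against 0% of all genes. The largest of these by p was Cxcl16, whose 20 week effect was 1.09 lower in AIM-KO on the log2 scale (a difference of -1.09 ± 0.25, adjusted p = 0.169).

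In AIM-KO livers 3 of 39 members fell at 20 weeks against 12 weeks, against 3.44% of all genes tested. They were Ccl3 (-2.49 ± 0.56, adjusted p = 0.0196), Ccl6 (-0.77 ± 0.18, adjusted p = 0.0252) and Cxcl16 (-0.66 ± 0.17, adjusted p = 0.045). At 20 weeks every AIM-KO array had Ccl3 below its 40th percentile, so the fall was at least 2.04-fold. Ccl3 passed the dim filter only through the AIM-KO arrays at 12 weeks, the higher side of this comparison. In WT livers none was called by limma between those times (2 at an unadjusted p under 0.05), against 0.0204% of all genes. With the Xist term no call remained, with Ccl3 at -2.42 ± 1.04 (adjusted p = 0.585), Ccl6 at -0.91 ± 0.33 (adjusted p = 0.547) and Cxcl16 at -0.39 ± 0.31 (adjusted p = 0.828). The SEs were larger with the term, which rests on WT 20 weeks replicate 2 alone to separate Xist from AIM-KO at 20 weeks. Fits without 1 AIM-KO array of 12 or 20 weeks gave 0 or 1 call, with none without 12 weeks replicate 1 or without 20 weeks replicate 3.

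The difference between the genotypes in this change, a comparison added after the values were seen, was called for Cxcl16 (-1.12 ± 0.25, adjusted p = 0.0303), 1 of 39 members against 1.42% of all genes tested. For Ccl2 the difference was -3.0 ± 0.80 (adjusted p = 0.0713), for Ccl6 -0.92 ± 0.26 (adjusted p = 0.0848) and for Cxcl2 -2.27 ± 0.68 (adjusted p = 0.112). With the Xist term the Cxcl16 difference was -0.94 ± 0.30 and not called (adjusted p = 0.333), and its second probe set gave -0.65 ± 0.28 (adjusted p = 0.353). The comparisons share arrays with those above, so they are not separate evidence.

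**Figure D3:**
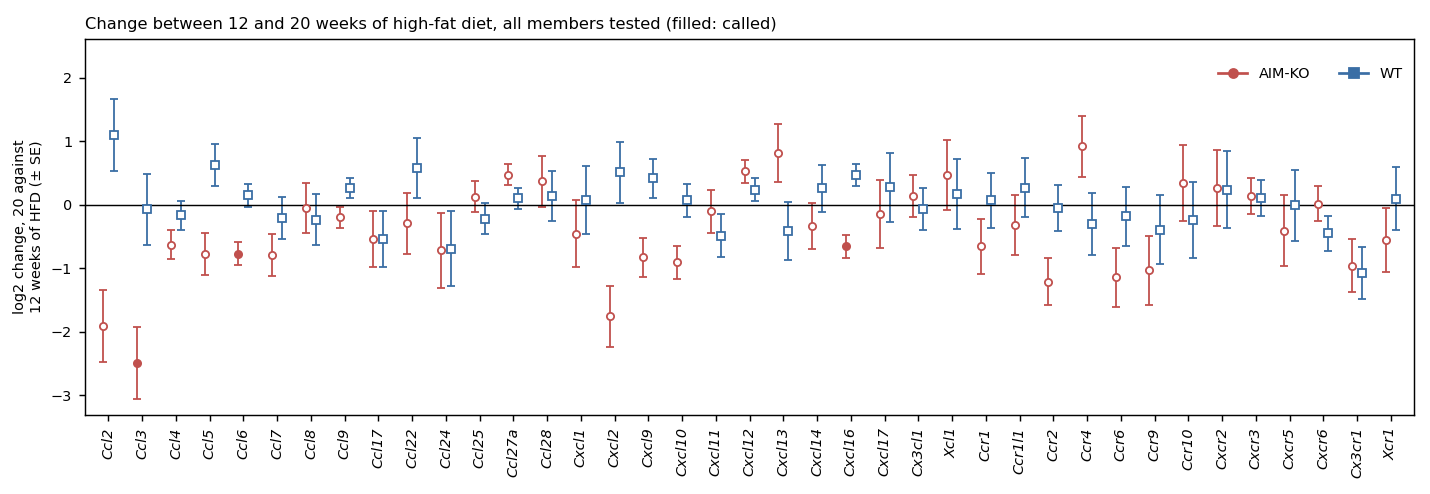
Log2 change at 20 against 12 weeks of HFD, with its SE, for the 39 members tested, AIM-KO (red circles) left of WT (blue squares); filled symbols are calls. Of the red symbols 27 lie below 0, with Ccl3, Ccl6 and Cxcl16 filled, and of the blue ones 18, with none filled. With the Xist term 26 and 17 do. The median of all genes tested was -0.011 in AIM-KO and 0.0019 in WT, and the members, read on the same arrays, are not separate observations.

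Genes that carry or shape the chemokine signal were read from a list of 34, of which 31 were tested. At 12 weeks in AIM-KO livers, where 18.2% of all genes tested were called, 8 of 31 rose and none fell. The median change was 0.55, against 0.04 for all genes. The largest changes were in Rgs2, which shortens G protein signals (1.59 ± 0.21, adjusted p = 5.78e-05), Itgb2, the beta chain of the leukocyte integrins that chemokines activate (1.54 ± 0.19, adjusted p = 2.38e-05), and Selplg, the selectin ligand of rolling leukocytes (1.26 ± 0.27, adjusted p = 0.00272). At 20 weeks in WT livers, where 14.5% of all genes were called, 7 of 31 rose and none fell. They were led by Ackr3, an atypical receptor that takes up Cxcl12 (2.56 ± 0.46, adjusted p = 0.000903), Rgs1 (1.96 ± 0.44, adjusted p = 0.00596) and Rgs2 (1.86 ± 0.21, adjusted p = 1.52e-05). At 12 weeks in WT livers, where 5.15% of all genes were called, 3 rose (Ackr3, Rgs2 and the platelet chemokine Pf4). At 20 weeks in AIM-KO livers, where 6.97% were called, 1 rose, the platelet chemokine Ppbp (0.95 ± 0.28, adjusted p = 0.0477). Rgs2 was the only gene of the list called between genotypes, lower in AIM-KO livers at 20 weeks (-1.39 ± 0.21, adjusted p = 0.0185 in limma). Over all genes tested 0.157% were called there. That comparison sets 3 Xist-high arrays against 1, and no value with the Xist term is given for Rgs2.

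Inducers of chemokine genes were read from a list of 13, of which 8 were tested; Il6 and Ifng lay below the 40th percentile on all 18 arrays. At 12 weeks in AIM-KO livers, where 18.2% of all genes were called, 3 of 8 rose. They were Relb of the NF-kappaB family (1.78 ± 0.45, adjusted p = 0.00953), the matricellular gene Ccn1 (1.30 ± 0.37, adjusted p = 0.0189) and the interferon regulatory factor Irf1 (0.61 ± 0.18, adjusted p = 0.0258). At 20 weeks in WT livers, where 14.5% of all genes were called, Ccn1 rose (1.46 ± 0.37, adjusted p = 0.0116). None of the 8 was called in the other comparisons with chow.

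Markers of monocytes and macrophages moved with the chemokine genes. Of 11 such markers other than the members, 8 rose at 12 weeks in AIM-KO, 2 at 20 weeks in AIM-KO, 2 at 12 weeks in WT and 9 at 20 weeks in WT. Over all genes tested 18.2%, 6.97%, 5.15% and 14.5% were called in those comparisons, in that order. The summed intensity of the 11 markers in AIM-KO livers was 1633 to 1939 on chow, 3865 to 4090 at 12 weeks and 1971 to 2653 at 20 weeks. In WT livers the sum was 1843 to 2050 on chow, 2215 to 3548 at 12 weeks and 3692 to 3884 at 20 weeks. None of the 11 was at 0 or below the 40th percentile on all arrays. WT 12 weeks replicate 3, the array with Ccl2 at 1.1 and Ccl3 at 1.3, was the lowest of its group at 2215. Between genotypes at 20 weeks, where 0.157% of all genes tested were called, 2 of the 11 were called, both lower in AIM-KO livers. They were Mmp12 (-2.55 ± 0.43, adjusted p = 0.0264 in limma) and Lgals3 (-1.93 ± 0.37, adjusted p = 0.0415). In the change between 12 and 20 weeks, where Cxcl16 differed between genotypes, 4 of the 11 differed too, with the same sign: Mmp12, Lgals3, Cd68 and Lyz2. Over all genes tested 1.42% were called there. Both comparisons use the 20 week arrays, of which 3 in AIM-KO and 1 in WT were Xist-high. No values with the Xist term are given for these markers. The part of monocytes and macrophages in the results was not tested.

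Stellate cell and hepatocyte markers moved in the same comparisons. Of 7 stellate cell markers 5 rose at 12 weeks in AIM-KO (median 1.12 on the log2 scale, against 1.06 for the 11 monocyte and macrophage markers), 3 at 20 weeks in AIM-KO, 1 at 12 weeks in WT and 6 at 20 weeks in WT (median 1.33, against 0.88). Over all genes tested 18.2%, 6.97%, 5.15% and 14.5% were called in those comparisons, in that order. Of 8 hepatocyte markers 6 fell at 12 weeks in AIM-KO, 1 at 12 weeks in WT and 3 at 20 weeks in WT; the sum ran from 47136 to 50233 in AIM-KO livers at 12 weeks, against 66046 to 68829 in AIM-KO chow. The 6 Kupffer cell markers had a median of -0.66 at 12 weeks in AIM-KO, with 1 called (Clec4f, higher). Their sum there was 1415 to 1918, against 1727 to 1935 in AIM-KO chow. C6 of this list was lower at 20 weeks than on chow in AIM-KO (-3.09 ± 0.45) and in WT (-1.83 ± 0.45). At 20 weeks all 3 AIM-KO arrays and 1 WT array were Xist-high, and no chow array was. Diet and sex thus cannot be told apart for C6 in AIM-KO livers, and no value with the Xist term is given for it. None of 6 tested neutrophil markers and none of 6 tested T cell markers was called against chow. The neutrophil sum ran from 181.3 to 201.3 in AIM-KO livers at 12 weeks, against 88.2 to 124.0 in AIM-KO livers on chow. In WT livers it ran from 123.2 to 179.5 on chow, and both 12 weeks (124.1 to 363.1) and 20 weeks (161.6 to 380.6) overlapped that. At 12 weeks in AIM-KO, where 18.2% of all genes were called, 2 of 6 NK cell markers (Nkg7 and Klrk1), 2 of 5 B cell markers (Ighm and Cd22), 2 of 6 dendritic cell markers (Itgax and Zbtb46) and 2 of 8 endothelial markers (Lyve1 and Cdh5) rose, and none of 5 cholangiocyte markers did. At 20 weeks in WT 14.5% of all genes were called. There 1 of 5 B cell markers (Ighm), 2 of 6 dendritic cell markers (Itgax and Zbtb46) and 1 of 8 endothelial markers (Lyve1) rose. The list medians were -0.46, 0.35 and 0.14 on the log2 scale, in that order, so the B cell list as a whole did not rise. No NK cell or cholangiocyte marker was called there. Lyve1 was also lower in AIM-KO livers than in WT livers at 20 weeks, a comparison of 3 Xist-high arrays against 1. Over all genes tested 0.157% were called there. Their part in the results was not tested.

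**Figure D4:**
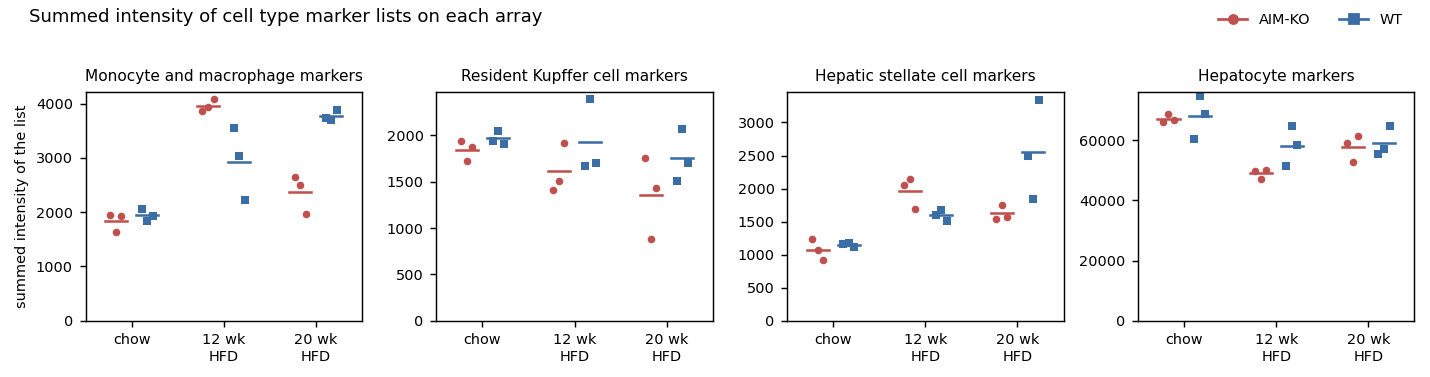
Summed intensity of 4 marker lists by diet, with 1 point per array, AIM-KO (red circles) left of WT (blue squares), and a line at each group's mean. The monocyte and macrophage sums are highest in AIM-KO at 12 weeks (3865 to 4090) and in WT at 20 weeks (3692 to 3884), and the hepatocyte sums are lowest in AIM-KO at 12 weeks.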

How the data were processed

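The deposited value table of 18 arrays held intensities on a linear scale, 1 per probe set, which are MAS5 values per the submitters' processing notes; the MAS5 version and scaling target are not given in the sources used here, and the 2% trimmed mean was 100 on every array. Labelled RNA was made from 100 ng of liver RNA taken up in Trizol, per the labels' protocols. Of 45101 probe sets, 34945 had 1 gene in the platform annotation, and the 932 with several genes and 9160 with none were not named. Symbols were updated through entrez IDs, which matched 34741.

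Deposited intensities were turned into log2(value + 3.3), 3.3 being the 20th percentile of all values, with no further normalization. The brightest probe set stood for each gene, and genes above the 40th percentile of an array on at least 3 arrays were tested, 14673 in all. limma 3.58.1 in R 4.3.3 fitted 6 group means on 18 arrays with a variance trend (18.2 degrees of freedom), 2-sided, adjusted by Benjamini-Hochberg. "At least" folds set a group below the 40th percentile on all its arrays at those percentiles. The fit was tested on simulated data. The number of arrays limits the precision: the median SE of a comparison was 0.22.

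The members and lists were chosen with earlier results of these data known. Every member was accounted for: values on each array for those called in at least 2 of 11 comparisons, fold and test for those called once, and names with ranges otherwise, with values of some uncalled members chosen after they were seen. From the lists, called genes with the 3 largest changes were named. Promoter sequences and gene order come from RefSeq; no protein sequences were used.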

Additional observations from a re-analysis of the deposited data

Results flagged for a closer look

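The change of Cxcl16 between 12 and 20 weeks of HFD differed between the genotypes, by a test of that difference itself (-1.12 ± 0.25 on the log2 scale, AIM-KO minus WT, adjusted p = 0.0303 in limma). The 3 AIM-KO arrays stood at 41.2, 53.4 and 41.6 at 20 weeks and at 71.4, 70.4 and 77.2 at 12 weeks, and the 3 WT arrays at 88.6, 73.8 and 90.6 at 20 weeks and at 60.1, 61.6 and 58.3 at 12 weeks. The AIM-KO arrays at 20 weeks were also high in Xist, as was WT 20 weeks replicate 2, with the Xist term the difference was -0.94 ± 0.30 (adjusted p = 0.333 in limma), and the call was kept in 3 of the 12 fits that left out 1 array.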

How the results depend on the processing

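Of 33 calls of a member in a comparison, 16 were kept in every alternative fit and none changed sign. With the Xist term 28 were kept, with no variance trend 26, with the mean of probe sets 29, with quantile normalization, no dim filter or a pseudocount of 0.825 each 30, and with a pseudocount of 13.2 32. Quantile normalization moved the median of all genes by under 0.1. Counts of members called moved as follows. For AIM-KO at 20 weeks against chow the count of 1 was 0 with the Xist term and 0 with no trend, and 0 to 1 without 1 array. For WT at 12 weeks it was 3 to 9 without 1 array. Between genotypes it was 0 to 1 without 1 array at 12 weeks, and at 20 weeks 1 with a pseudocount of 13.2 and 0 to 1 without 1 array. For 20 against 12 weeks in AIM-KO the count of 3 was 6 with a pseudocount of 13.2, 0 with the Xist term, 1 with no trend and 0 to 1 without 1 array. The difference of the 20 week effect gave 0 to 1 without 1 array. The added difference between 12 and 20 weeks gave 3 with a pseudocount of 13.2, 0 with the Xist term, 0 with no trend and 0 to 4 without 1 array. Alternatives also added calls against chow: Cxcl13 fell in WT at 20 weeks with the Xist term, the mean of probe sets, a pseudocount of 13.2 or without WT 20 weeks replicate 2, Cxcl12 fell in AIM-KO at 12 weeks with the mean of probe sets, Ccl7 rose in WT at 12 weeks with no trend, Cxcr4 rose in WT at 20 weeks with no dim filter, and Ccr1 rose in WT at 20 weeks without WT chow replicate 2. Without WT 12 weeks replicate 3, Ccl2, Cxcl1, Cxcl2 and Ccr1 rose in WT at 12 weeks. The cause of these changes was not tested. Arrays of different groups that share a replicate number are not paired by the labels, and their deviations from the group means correlated at -0.09 to 0.23 (45 pairs), against -0.19 to 0.12 for arrays of different numbers (90 pairs). With the replicate number as a block all 33 calls were kept, Cxcl2 was also called in WT at 12 weeks, and the count became 1 between genotypes at 20 weeks and 5 for 20 against 12 weeks in AIM-KO.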

Other observations

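WT 12 weeks replicate 2, the array with Cxcl1 at 882.1, also had the highest value of Cxcl5 among the 18 arrays (26.8, with 1.2 and 1.6 on the other WT arrays at 12 weeks). Both are ligands of Cxcr2. Its neutrophil marker sum was 363.1, against 224.8 and 124.1 on replicates 1 and 3. The actin 3′ to 5′ ratio of this array was 3.79, against 2.69 and 2.52 on replicates 1 and 3. The only higher neutrophil sum, 380.6, was that of WT 20 weeks replicate 2, on which Cxcl1 stood at 251.6 and Cxcl2 at 42.3. Ccl11, an attractant of eosinophils that was near background, reached 21.3 on AIM-KO 20 weeks replicate 3 and at most 8.7 on any other array. These are values of single arrays and no comparison was made of them.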
